A study of Mus musculus with 6 samples.

Results

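After siRNA against DJ-1, 12 probes of genes listed for creatine kinase and high-energy phosphate buffering were tested in C2C12 myotubes. Of these, 4 were called lower and 2 higher, where 13.6% and 16.5% of all tested probes were. The count called higher is near the share of all probes, and the 4 lower probes are of 2 genes. The mitochondrial creatine kinase of striated muscle (CKMT2) and the AMP deaminase of muscle (AMPD1) were each lower on both of their probes, by more than 2-fold with background correction (1 Ampd1 probe fell by less without it). Of 30 tested probes of myotube markers, 15 were also called lower and 2 higher, and their part in these changes was not tested. The muscle-type cytosolic creatine kinase (CKM) was not called, and its values overlapped between the groups. The creatine transporter (SLC6A8) and the first enzyme of creatine synthesis (GATM, read on a dim probe) were higher. The second enzyme of creatine synthesis (GAMT), which is no member, was lower (log2 fold change -0.51). The Ckmt2 and Gatm calls were each lost in 3 of 6 fits with 1 array left out, and the Slc6a8 call in all 6.

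The members are 10 genes of creatine kinase and high-energy phosphate buffering, listed by symbol: CKM, CKB, CKMT1, CKMT2, AMPD1, AMPD3, AK1, MB, SLC6A8 and GATM. A probe belongs to the group when the name printed for it in the deposited probe report is one of these symbols, ignoring case. This gave 15 probes for 10 genes, out of 45281 probes with 30854 distinct names. There are 2 probes for each of 5 genes (Ckmt1, Ckmt2, Ampd1, Ampd3, Mb) and 1 for each of the other 5. Each probe was kept separately.

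C2C12 is a line of mouse myoblasts, which fuse into myotubes when serum is reduced. Cells were reverse transfected with siRNA at 60 nM, either scramble siRNA (3 arrays) or DJ-1 siRNA (3 arrays), moved to 2% horse serum 48 h later, and kept there for 4 days. Total RNA of the 6 samples was hybridized to 1 Illumina BeadChip, a slide on which each probe sits on many beads. With 1 siRNA per group, an effect of that sequence on other transcripts cannot be told apart from an effect of lower DJ-1. The labels number the replicates without saying that they were separate cultures, so a p-value here measures spread between these samples, which may be technical.

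Muscle spends ATP faster than it can be made at the onset of work, and creatine kinase refills it by moving phosphate from phosphocreatine to ADP. The mitochondrial forms of the enzyme sit in the intermembrane space and charge creatine with new ATP, while the cytosolic forms spend phosphocreatine near the myofibrils and pumps. Adenylate kinase joins 2 ADP into ATP and AMP, AMP deaminase removes that AMP, and myoglobin holds oxygen for the mitochondria.

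Promoter sequences are shown for the 2 creatine kinases of striated muscle, of which Ckmt2 was called and Ckm was not, as a description of the genes. The RefSeq promoter table of the GRCm38.p6 build holds 8 of the 10 members; Ampd1 and Slc6a8 have no entry. It lists 16 promoters for these 8 genes, 4 for Ak1, 3 each for Ampd3 and Mb, 2 for Ckmt1 and 1 for each of the others. Below are the 250 bases before the start, 5′ to 3′ on the strand of the gene, for Ckm (plus strand, chr7:19410844-19411093) and Ckmt2 (minus strand, chr13:91876886-91877135). Capitals mark the E-boxes CAGCTG, which reads alike on both strands, and CACCTG, searched on both strands.
Ckm: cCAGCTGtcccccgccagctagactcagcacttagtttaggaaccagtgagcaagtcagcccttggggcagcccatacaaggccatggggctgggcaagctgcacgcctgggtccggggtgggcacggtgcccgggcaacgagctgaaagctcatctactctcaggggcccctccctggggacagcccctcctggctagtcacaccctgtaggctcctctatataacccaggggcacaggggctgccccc
Ckmt2: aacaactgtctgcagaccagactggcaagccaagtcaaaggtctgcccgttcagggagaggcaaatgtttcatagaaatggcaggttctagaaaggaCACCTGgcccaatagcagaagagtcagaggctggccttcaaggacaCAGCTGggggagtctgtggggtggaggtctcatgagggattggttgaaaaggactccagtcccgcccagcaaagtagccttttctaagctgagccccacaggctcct
Ckm holds CAGCTG 1 time, at the far end of the window, and Ckmt2 holds CAGCTG and CACCTG 1 time each. Of 32851 promoters of this length, 13% hold CAGCTG and 17.2% hold CACCTG. The MEF2 motif (2.92% of promoters) and the CArG motif (1.47%) were found in neither of the 2. A match is a run of letters and not a site shown to be bound.

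The label of the cells was checked with 16 genes of myotubes, of which 30 of 36 probes were tested. The skeletal actin probe of Acta1 had log2 intensities of 15.21, 15.35 and 15.33 in the scramble group against 15.35, 15.38 and 15.15 after DJ-1 siRNA. Both groups thus carry abundant myotube transcripts, and the actin values overlap. Of the 30 tested probes, 15 were called lower and 2 higher, where 13.6% and 16.5% of all tested probes were. Their median log2 fold change was -0.35, and probes of Mef2c were among the lower ones (-2.61, -2.37 and -2.48). The regulator Myog was detected on all arrays with 2 probes (log2 fold changes of 0.22 and -0.11, neither called), and the early myosin Myh3 was not called either (-0.17). Of markers of cycling or undifferentiated cells, Pax7 was detected on 0 of 6 arrays and Myf5 on 1 array of each group. Others of that list were detected on all 6 arrays, among them Ccnb1, Pcna and 1 probe each of Cdk1 and Mki67. The defining markers of fat cells, Adipoq and Plin1, and of bone cells, Sp7 and Runx2, were detected on 0 arrays. Other genes of these lists were detected on all 6 arrays with 1 probe each: Pparg and Lpl of the fat cell list and Bglap of the bone cell list.

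The arrays differ between the groups in bead noise. Probes with a detection p under 0.05 numbered 16985, 17399 and 18179 on the scramble arrays against 18704, 18857 and 18408 on the DJ-1 siRNA arrays. The bead standard error had a median of 11.3, 8.3 and 8.66 against 7.17, 6.36 and 5.88 intensity units. Every scramble array was therefore noisier and had fewer detected probes than every DJ-1 siRNA array. For the tested member probes, the bead standard error was 4.81% of the signal (median) on the scramble arrays and 3.66% on the DJ-1 siRNA arrays. The part of this in the calls was not tested.

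The targeted transcript was read first. Park7, the gene of DJ-1, has 1 probe, with log2 intensities of 13.59, 13.37 and 13.63 in the scramble group against 12.48, 12.49 and 12.15 after DJ-1 siRNA. All 3 values after DJ-1 siRNA lie below all 3 controls, with replicate 3 lowest. The log2 fold change was -1.16 (95% interval -1.49 to -0.84, adjusted p 0.00344 in limma). It was called in all 14 alternatives, at -1.243 to -1.003.

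A probe was tested where 3 or more of the 6 arrays detected it (detection p under 0.05), which left 12 of the 15 member probes, for 9 of the 10 genes. A probe is called when its p, adjusted over all 17890 tested probes, is under 0.05. Of the 12, 4 were called lower and 2 higher, and 6 were not called. Over all tested probes, 13.6% were called lower and 16.5% higher, which are the shares to set beside the counts of each list below. The groups did not overlap for 6 member probes on the lower side and 2 on the higher side, against 22% and 26.5% of all tested probes. The median log2 fold change was -0.25 for the 12 probes and 0.05 for all. The median of the 12 depends on the scaling: arrays aligned at the 75th percentile gave -0.077 with background correction and -0.132 without it. The next paragraphs take the members by role, and the values of each array are drawn below.

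**Figure D1:**
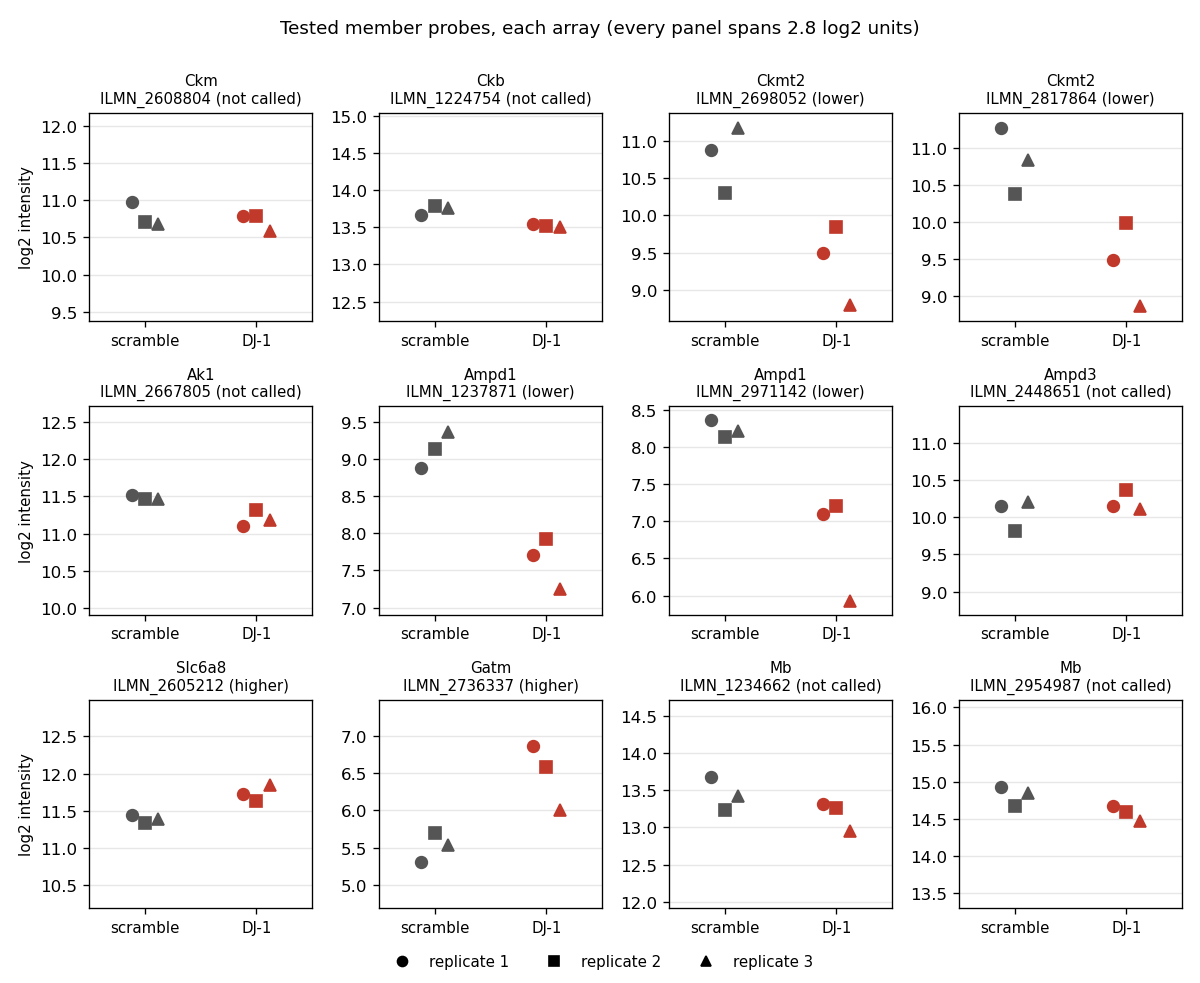
Log2 intensity of the 12 tested member probes on each array. Panels span the same number of log2 units but start at different levels, which are not comparable between probes.

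Ckm codes for the cytosolic creatine kinase of muscle fibres. Its probe had log2 intensities of 10.97, 10.71 and 10.68 in the scramble group against 10.79, 10.78 and 10.58 after DJ-1 siRNA. The groups overlap, and scramble replicate 1 is the highest of the 6. The log2 fold change was -0.07 (95% interval -0.36 to 0.22, adjusted p 0.705 in limma). Its sign turned with the background-corrected shift to a common 75th percentile (0.04) and without scramble replicate 1 (0.02), and it was called in 0 of 14 alternatives.

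Ckb codes for the cytosolic form that myoblasts and brain express. Its log2 intensities were 13.67, 13.78 and 13.76 in the scramble group against 13.55, 13.52 and 13.50 after DJ-1 siRNA. The groups do not overlap, and the gap between them is small. The fitted change was -0.21 (95% interval -0.424 to 0.003, adjusted p 0.12 in limma) and was not called. Its size shrank to -0.052 and -0.107 with arrays aligned at the 75th percentile, with and without background correction. With a prior variance that follows intensity it was called (adjusted p 0.0112 in limma), 1 of 14 alternatives, over which the adjusted p in limma ran from 0.0112 to 0.745.

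Ckmt1 codes for the mitochondrial form found in many tissues. Of its 2 probes, ILMN_1217054 was detected on 0 arrays and ILMN_2773537 on 1 array, of the DJ-1 siRNA group, so neither was tested. Deposited intensities lay between 137.1 and 169 for the first and between 120 and 181.6 for the second.

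Ckmt2 codes for the mitochondrial form of heart and skeletal muscle, and its 2 probes are separate readings of the same samples. Probe ILMN_2698052 had log2 intensities of 10.88, 10.30 and 11.17 in the scramble group against 9.50, 9.84 and 8.79 after DJ-1 siRNA. Probe ILMN_2817864 had 11.27, 10.38 and 10.83 against 9.49, 9.99 and 8.87. On both, every DJ-1 siRNA array lies below every scramble array, the nearest pair being replicate 2 of each group and the lowest array DJ-1 siRNA replicate 3. The log2 fold changes were -1.40 (95% interval -2.17 to -0.64, 37.8% of scramble, adjusted p 0.0201 in limma) and -1.38 (-2.16 to -0.60, 38.4%, adjusted p 0.0228). Fewer or less mature myotubes and less of the transcript per myotube cannot be told apart in RNA of whole cultures, here and below.

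Leaving out 1 array put both Ckmt2 probes above the threshold of 0.05 in 3 of 6 cases. Without scramble replicate 3 the changes were -1.21 and -1.38 (adjusted p 0.0549 and 0.0563 in limma). Without DJ-1 siRNA replicate 1 they were -1.47 and -1.40 (adjusted p 0.0565 and 0.0675 in limma), and without DJ-1 siRNA replicate 3, -1.11 and -1.09 (adjusted p 0.053 and 0.0626 in limma). With all arrays kept and the replicate number as a block, ILMN_2698052 was not called (adjusted p 0.055 in limma), while ILMN_2817864 was (adjusted p 0.0451 in limma). The direction was the same in all 14 alternatives, where the first probe ran from -1.65 to -1.11 and the second from -1.65 to -1.09.

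**Figure D2:**
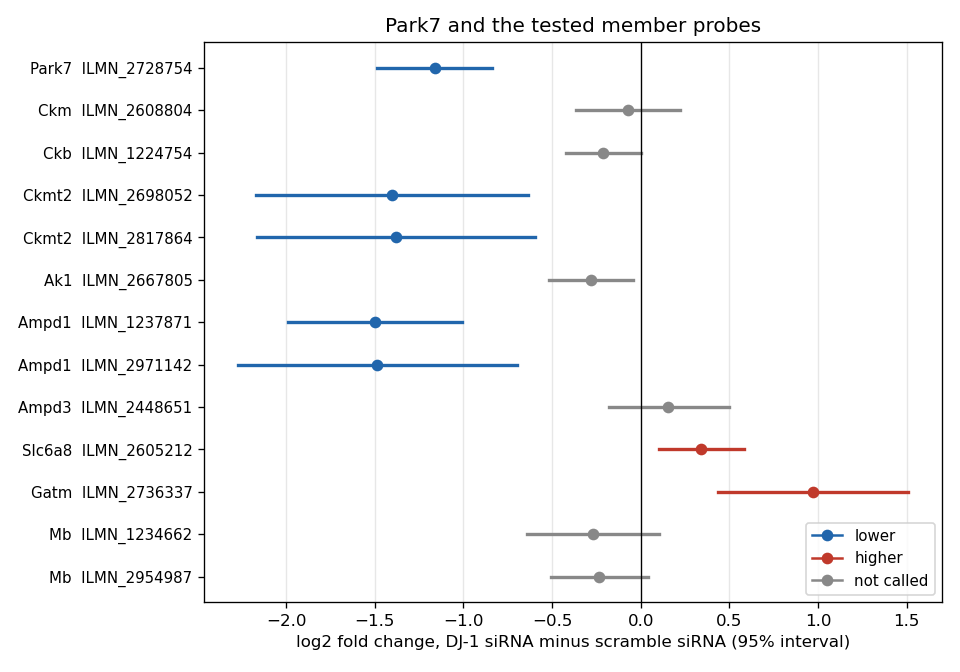
Log2 fold change with its 95% interval for Park7 and the 12 tested member probes. Blue is called lower, red called higher and grey not called.

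Whether the creatine kinases changed unequally was asked on each array, as the difference between 2 probes. Ckm minus Ckmt2 (ILMN_2817864) was -0.30, 0.33 and -0.15 in the scramble group against 1.30, 0.79 and 1.71 after DJ-1 siRNA. The groups do not overlap, and the change in the difference was 1.31 (exact permutation p 0.1, the smallest that 3 arrays against 3 can give, and 0.2 adjusted over 4 pairs). Ckb minus Ckmt2 was 2.40, 3.39 and 2.93 against 4.06, 3.54 and 4.63. These do not overlap either, with a change of 1.17 (exact permutation p 0.1, adjusted 0.2). Ckm minus Ckb was -2.70, -3.07 and -3.08 against -2.76, -2.74 and -2.92, which overlap (change 0.14, exact permutation p 0.4, adjusted 0.4). Ckm minus Ak1 changed by 0.21, with groups that overlap (exact permutation p 0.2, adjusted 0.267). None of the 4 passes 0.05, which this test cannot reach with 6 arrays, so these differences are a description.

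**Figure D3:**
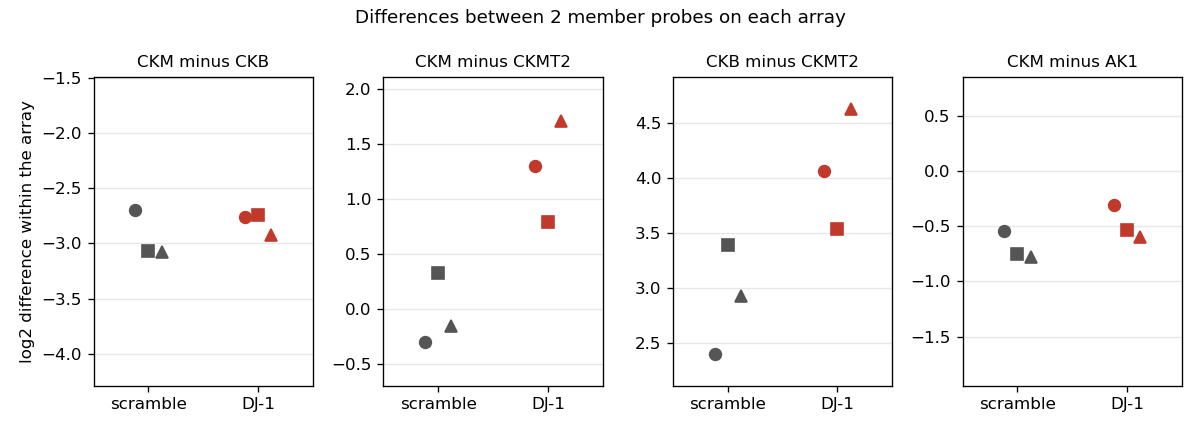
Difference between 2 member probes on each array, for the 4 pairs compared. Each panel spans the same number of log2 units.

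Ak1 codes for the cytosolic adenylate kinase of muscle. Its log2 intensities were 11.52, 11.46 and 11.46 in the scramble group against 11.10, 11.31 and 11.18 after DJ-1 siRNA. The groups do not overlap, with the DJ-1 siRNA arrays lower. The fitted log2 change, -0.28 (95% interval -0.52 to -0.05, adjusted p 0.073 in limma), was not called. It was called in 3 of 14 alternatives, over which the change ran from -0.34 to -0.15 and the adjusted p in limma from 0.013 to 0.317.

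A list of further adenylate kinases, which does not hold all of them, gave 4 tested probes of 8, with 1 called higher, 1 called lower and a median log2 fold change of -0.20. Ak3, the form of the mitochondrial matrix that uses GTP, was lower on probe ILMN_1244147 (-0.69, adjusted p 0.00659 in limma) and not called on its other probe (-0.30, adjusted p 0.218 in limma). Ak4, also of the matrix and listed as AK3L1, was higher (0.67, adjusted p 0.035 in limma), a call that 7 of 14 alternatives kept, with a change of 0.39 in the smallest.

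Ampd1 codes for the AMP deaminase of skeletal muscle. Probe ILMN_1237871 had log2 intensities of 8.88, 9.13 and 9.36 in the scramble group against 7.71, 7.92 and 7.25 after DJ-1 siRNA. Probe ILMN_2971142 had 8.36, 8.13 and 8.21 against 7.10, 7.21 and 5.93. On both, the groups lie apart, and DJ-1 siRNA replicate 3 is the lowest array. For ILMN_2971142 that array is dim, with a deposited intensity of 179.2 against 269.8 and 297.5 on the other DJ-1 siRNA arrays. The log2 fold changes were -1.50 (95% interval -1.99 to -1.01, 35.4% of scramble, adjusted p 0.00458 in limma) and -1.49 (-2.27 to -0.70, 35.7%, adjusted p 0.0182). Both were called in all 14 alternatives, at -1.65 to -1.06 for the first and -1.72 to -0.82 for the second, the smallest sizes being those without background correction.

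Ampd3 codes for the form of red cells and many other tissues. Probe ILMN_2448651 had log2 intensities of 10.15, 9.81 and 10.20 in the scramble group against 10.15, 10.37 and 10.11 after DJ-1 siRNA. The groups overlap, and the change of 0.16 was not called (95% interval -0.18 to 0.50, adjusted p 0.441 in limma). Its other probe, ILMN_1212698, was detected on 1 array, of the scramble group, and was not tested. That the 2 deaminase genes differ in their response was not tested.

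AMP deaminase opens the purine nucleotide cycle, which returns IMP to AMP through adenylosuccinate. The list of this cycle and of AMP breakdown, without the members, had 22 tested probes of 32, with 3 called higher, 6 lower and a median of -0.06. Over all tested probes, 16.5% were called higher and 13.6% lower. Within the cycle, the muscle adenylosuccinate synthase Adssl1 was not called on any of 3 probes (0.06 to 0.20), nor was the lyase Adsl (-0.09). The other synthase, Adss, was higher (0.44, adjusted p 0.0203 in limma), a call that held in 10 of 14 alternatives. Of the nucleotidases on the list, which take the phosphate off nucleotides and differ in the ones they prefer, Nt5c2 was lower on 3 probes (-1.20, -0.92 and -0.89), Nt5c on 1 (-0.57) and Nt5c3b, listed as NT5C3L, on 2 (-0.57 and -0.47). Nt5e, which acts on AMP outside the cell, was higher on 2 probes (0.99 and 0.58). The Nt5c2 and Nt5c calls held in all 14 alternatives, though the 3 Nt5c2 changes shrank to -0.75, -0.48 and -0.50 in the smallest, while those of Nt5c3b held in 9 and 7 and those of Nt5e in 12 and 7. Without DJ-1 siRNA replicate 1, and likewise without DJ-1 siRNA replicate 3, the list had 0 probes called higher in limma and 4 lower.

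Slc6a8 codes for the carrier that brings creatine into the cell. Its log2 intensities were 11.44, 11.34 and 11.39 in the scramble group against 11.72, 11.63 and 11.84 after DJ-1 siRNA. Every DJ-1 siRNA array lies above every scramble array. On the log2 scale the change was 0.34 (95% interval 0.10 to 0.58, 1.27-fold, adjusted p 0.0427 in limma). It was called in 6 of 14 alternatives. With all arrays kept the call was lost in 2 of 8 alternatives, no filter on dim probes (adjusted p 0.0975 in limma) and the replicate number as a block (adjusted p 0.0775 in limma). It was also lost whichever array was left out, at changes of 0.32 to 0.37 without a scramble array (adjusted p 0.0571, 0.105 and 0.0912 in limma without replicate 1, 2 and 3). Without DJ-1 siRNA replicate 1, 2 and 3 the changes were 0.35, 0.39 and 0.29 (adjusted p 0.121, 0.0588 and 0.126 in limma).

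Gatm codes for the enzyme that makes guanidinoacetate, the precursor of creatine. Its log2 intensities were 5.31, 5.69 and 5.54 in the scramble group against 6.86, 6.58 and 6.01 after DJ-1 siRNA. The groups lie apart, but this is a dim probe, detected on 2 of 3 scramble arrays and all 3 DJ-1 siRNA arrays, with deposited intensities of 174.8, 193.6 and 171.3 against 248.8, 240.9 and 182.3. On that deposited scale DJ-1 siRNA replicate 3 lies below scramble replicate 2. The log2 fold change was 0.97 (95% interval 0.43 to 1.51, adjusted p 0.0211 in limma). Its size rests on the background correction and fell to 0.34 in the lowest of 13 alternatives. With a prior variance that follows intensity it was called (adjusted p 0.0105 in limma, the lowest of a range that reached 0.0632). The call was lost without scramble replicate 3 (0.98, adjusted p 0.0512 in limma), without DJ-1 siRNA replicate 1 (0.79, adjusted p 0.0625) and without DJ-1 siRNA replicate 2 (0.92, adjusted p 0.0632).

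Gamt, the second enzyme of creatine synthesis, was the 1 gene of its list and is no member. Its log2 intensities were 10.66, 10.58 and 10.73 in the scramble group against 10.15, 10.18 and 10.10 after DJ-1 siRNA. The groups lie apart, in the direction opposite to Gatm. Its change was -0.51 on the log2 scale (70.1% of scramble, adjusted p 0.00998 in limma), and it was called in all 14 alternatives.

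Mb codes for myoglobin. Probe ILMN_2954987 had log2 intensities of 14.93, 14.67 and 14.85 in the scramble group against 14.68, 14.59 and 14.47 after DJ-1 siRNA. Probe ILMN_1234662 had 13.68, 13.24 and 13.42 against 13.32, 13.26 and 12.95. The groups overlap on both. The log2 fold changes of -0.23 (95% interval -0.51 to 0.04, adjusted p 0.167 in limma) and -0.27 (-0.64 to 0.10, adjusted p 0.235) were not called, and the first turned to 0.05 with the background-corrected shift to a common 75th percentile. Of 16 probes for other globins, 1 was tested: Cygb, lower (-1.23, adjusted p 0.0151 in limma) and detected on 3 arrays of the scramble group, through which it passed the filter, and 1 of the other. It was called in 11 of 13 alternatives, at -0.39 in the smallest.

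Phosphate leaves and enters the mitochondrion by carriers that work beside creatine kinase. The list of ATP and phosphate exchange had 9 tested probes of 12, with 2 called higher, 0 called lower in limma (1 at an unadjusted p under 0.05) and a median of 0.01. In 4 of 14 alternatives 1 probe was called lower. Both called probes are of Vdac1, the outer membrane pore (0.35 and 0.41, adjusted p 0.0334 and 0.0375 in limma), and each was called in 7 of 14 alternatives. The ADP and ATP carriers Slc25a4 (-0.50 and 0.17) and Slc25a5 (-0.11) and the phosphate carrier Slc25a3 (-0.26 and -0.10) were not called. The nucleoside diphosphate kinases, which pass phosphate between nucleotides, had 16 tested probes of 18, with 3 called higher, 1 lower and a median of -0.08. Nme1 was lower (-0.71, adjusted p 0.00374 in limma, called in all 14 alternatives), and Nme7 was higher on 3 of its 8 tested probes (0.54 to 0.66). The Nme7 calls held in 8, 7 and 9 of 14 alternatives, and all 3 were lost with no filter on dim probes and without scramble replicate 2 or 3 or DJ-1 siRNA replicate 1 or 2.

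**Figure D4:**
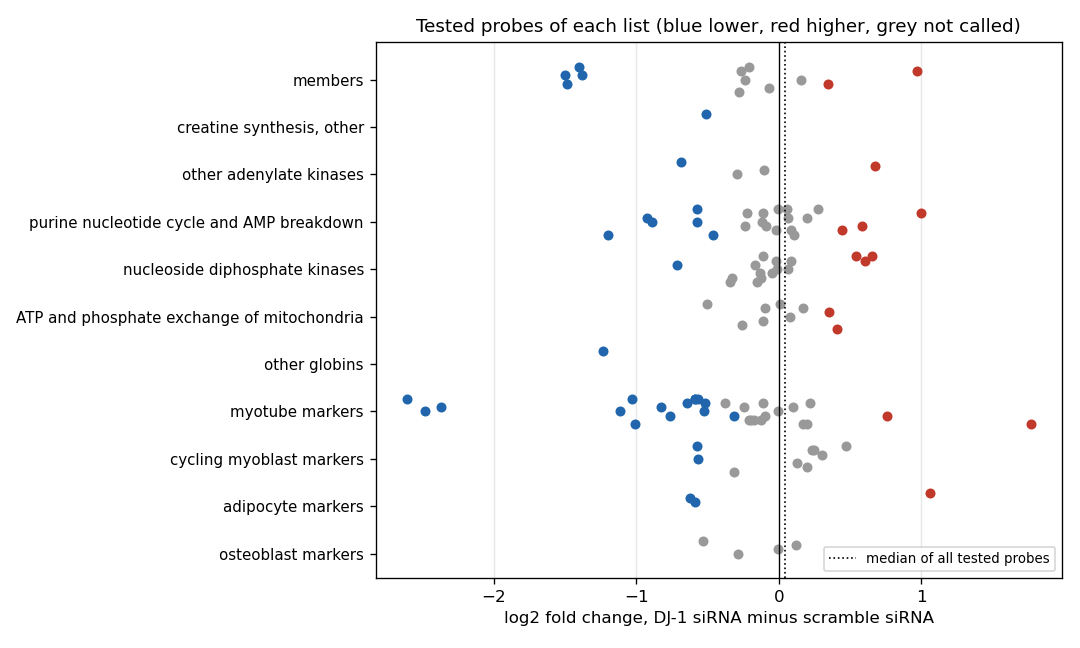
Log2 fold change of each tested probe, by list. The dotted line is the median of all tested probes.

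Markers of myotubes were read beside the members. Of the 30 tested myotube probes, 15 were called lower and 2 higher, with a median of -0.35. The count called lower was 9 without DJ-1 siRNA replicate 1, 9 without DJ-1 siRNA replicate 3 and 10 with no filter on dim probes. With arrays aligned at the 75th percentile, 13 were called lower and 4 higher, and the median was -0.182 with background correction and -0.118 without it. The regulator Mef2c was lower on 3 probes detected on all arrays (-2.61, -2.37 and -2.48, the first at -1.72 in the smallest of its alternatives) and on 1 dimmer one (-0.52, called in 2 of 13 alternatives), and the perinatal myosin Myh8 on 3 (-1.11, -1.01 and -1.03, called in 14, 9 and 14 of 14 alternatives). Lower too were Tnnc2 (-0.83), Cav3 (-0.59), Des (-0.56), Tnnt3 (-0.52) and 3 probes listed as TTN (-0.76, -0.59 and -0.64). Of these, Tnnc2 was called in all 14 alternatives, Cav3, Des and Tnnt3 in 13 each and the TTN probes in 10, 10 and 13. Des was lost at -0.325 with the background-corrected 75th percentile (adjusted p 0.0554 in limma). Tnni2 was lower too (-0.31), but called in 4 of 14 alternatives and in 0 of 6 with 1 array left out, and its change was -0.026 with the background-corrected 75th percentile (adjusted p 0.86 in limma). The 2 higher probes are also listed as TTN (1.77 and 0.76). The second is dim and passed the filter through the DJ-1 siRNA group (detected on 3 arrays there and 1 of the other), was called in 7 of 13 alternatives, and was at 0.24 in the smallest. Neither was matched to the RefSeq gene Ttn, and nor was 1 of the 3 lower ones (-0.59), or the Mef2c probe at -0.52 to its gene. The normalized intensities of all 36 myotube probes, off the log scale, summed to 399300, 396100 and 395000 in the scramble group against 332800, 347900 and 313600 after DJ-1 siRNA, which lie apart. The deposited intensities summed to 379491, 405457 and 367923 against 345538, 395613 and 309445, which overlap. Acta1, among the brightest of them, was not called (-0.005). The part of this shift in the changes of Ckmt2 and Ampd1 was not tested.

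Markers of cycling cells had 9 tested probes of 15, with 0 called higher in limma (3 at an unadjusted p under 0.05) and 2 lower, Pcna (-0.57) and 1 of 2 probes of Ccnb1 (-0.57). Their median was 0.20, and 6 of the 9 changes were positive. The groups lay apart on the higher side for 4 probes, of Cdk1 (0.30), Mki67 (0.47) and Top2a (0.25 and 0.23), and on the lower side for 2. Over all tested probes, they lay apart on the higher side for 26.5% and on the lower side for 22%. In 5 of 14 alternatives 1 or 2 probes of the cycling list were called higher. The normalized intensities of all 15 probes, off the log scale, summed to 5701, 5950 and 5511 in the scramble group against 5168, 5834 and 5378 after DJ-1 siRNA, and the deposited ones to 7843, 8131 and 7176 against 7080, 8407 and 6492. The groups overlap on both scales. Of fat cell markers, 3 of 9 probes were tested, with Pparg higher (1.06, called in 9 of 14 alternatives, 0.599 in the smallest) and Lpl lower (-0.59, called in 6 of 14). Cebpa was lower (-0.63), but it passed the filter through the scramble group (detected on 3 arrays there and 1 of the other), was called in 4 of 13 alternatives, and was at -0.179 in the smallest. Of bone cell markers, 4 of 11 were tested and 0 called in limma (1 at an unadjusted p under 0.05), while 1 was called lower in 3 of 14 alternatives, among them the fit without DJ-1 siRNA replicate 2. The tested ones were 2 probes of Bglap (-0.53 and -0.28) and 1 each of Alpl (0.12) and Ibsp (-0.009), with groups that overlap.

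The 5 tested probes whose centred values lie nearest to Ckm over the 6 arrays were those of Copz2 and Nipal3 (root mean square difference 0.028 for each), Deptor (0.035), LOC100048858 (0.035) and Dnm1l (0.036). None of the 5 was called and their groups overlap, as follows from choosing them for centred values near those of Ckm.

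**Figure D5:**
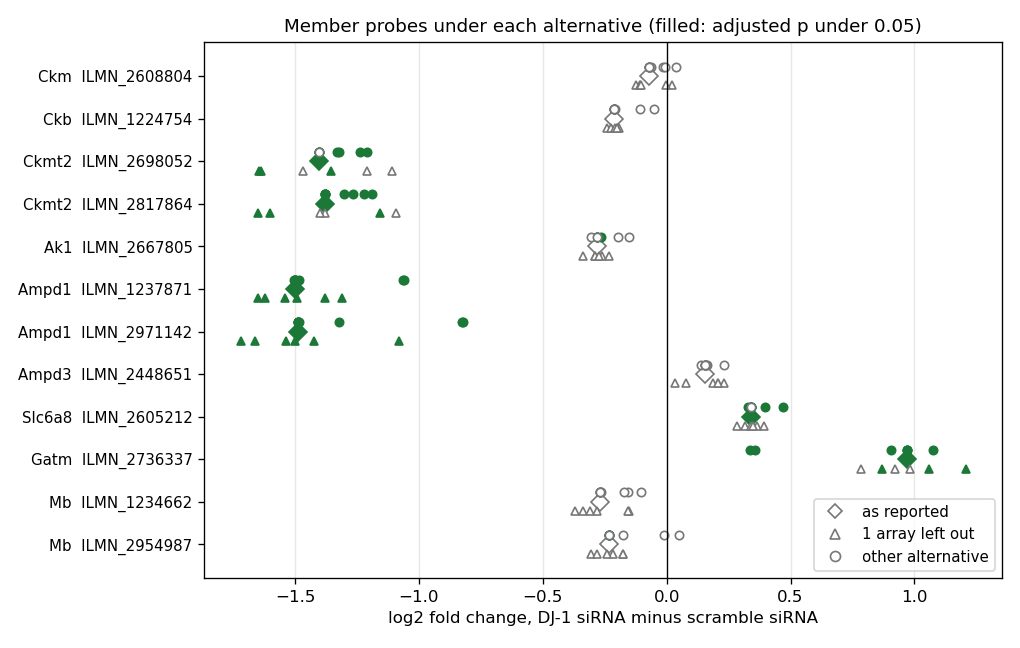
Log2 fold change of each tested member probe as reported and under each alternative. Filled marks have an adjusted p under 0.05.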

How the data were processed

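The authors deposited, for each of 45281 probes and each of 6 arrays, a bead-averaged intensity, its standard error, the number of beads and a detection p-value from GenomeStudio 2011.1, with no normalization or background subtraction. Here, in R 4.3.3 with limma 3.58.1, background was corrected by normexp with an offset of 16, with the level of the negative controls taken from the detection p-values. Quantile normalization and log2 followed (the neqc method). Probes that 3 or more arrays detected (detection p under 0.05) went into 1 moderated fit (lmFit, eBayes), whose p-values were adjusted together by Benjamini-Hochberg and read at 0.05. Intervals are 95% confidence intervals. Differences between 2 probes were compared by exact permutation over the arrays.

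The steps were tested on simulated data. Directions and sizes were recovered, but the fit, which assumes 1 prior variance for all intensities, called dim probes that had not changed too often and, where few probes changed, bright ones too rarely, and its share of false calls passed the nominal rate. Where few probes changed, it called none of the changes of 1 log2 unit. The bound set for false calls in this test was widened after the test first failed on it, so a call read at 0.05, above all of a dim probe, is less certain than that threshold states. A trend of the prior variance with intensity, among the alternatives, lessened this for dim probes but called bright ones that had not changed too often where many probes changed. Of the members, this bears on dim probes such as that of Gatm and on bright ones such as those of Ckb, Ak1, Mb and Slc6a8.

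The members and lists were chosen with earlier results of these data known. Named are every member probe, Park7, each called probe of the lists, the cell markers and the 5 tested probes nearest to Ckm by root mean square difference of centred values. The lists were creatine synthesis (Gamt), other adenylate kinases (in part), the purine nucleotide cycle and AMP breakdown, nucleoside diphosphate kinases, ATP and phosphate exchange of mitochondria, other globins, and markers of myotubes, cycling myoblasts, fat cells and bone cells. The RefSeq gene table gave a symbol for 32345 probes, and for 14 of the 15 member probes it was the listed member. The array file names no genome build, so no probe positions are given.

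The alternatives were leaving out the background correction (signals raised to at least 1), aligning arrays at their 75th percentile in place of quantiles (on corrected and on uncorrected signals), testing all probes, a detection p under 0.01 on all 6 arrays, the trend of the prior variance, array weights, the replicate number as a block, and each array left out in turn. The median change over all tested probes was 0.046, and 0.025 to 0.069 under the other scalings.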

Additional observations from a re-analysis of the deposited data

How the results depend on the processing

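Of the 12 tested member probes, 4 were called lower. The count was 7 with a trend of the prior variance, where Ckb, Ak1 and the brighter Mb probe joined. With that trend, the probes called lower over all tested probes rose from 2430 to 3026. The count of member probes was 5 without background correction and 5 with the stricter filter. It lay between 2 and 4 with 1 array left out (2 without scramble replicate 3, DJ-1 siRNA replicate 1 or DJ-1 siRNA replicate 3). The count called higher, 2, was 1 with no filter on dim probes and 1 with the stricter filter, which drops Gatm. It lay between 0 and 1 with 1 array left out. Over all probes, 5387 were called, 3519 with no filter and 2564 to 5290 with 1 array left out. More were called with the trend of the prior variance (6470), without background correction (6292) and with array weights (6184).

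The replicate number as a block gave 1 member probe called higher and 3 lower, with Slc6a8 (adjusted p 0.0775 in limma) and Ckmt2 ILMN_2698052 (adjusted p 0.055 in limma) no longer called. The residuals of equally numbered arrays correlate at 0.054, 0.047 and 0.02, and those of unequally numbered ones at -0.047 to -0.004. All of these are small, so they do not decide whether the numbers pair the arrays.

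The sign turned for Ckm, to 0.036 with the background-corrected shift to a common 75th percentile and to 0.023 without scramble replicate 1 (-0.123 to 0.023 with 1 array left out), and for Mb ILMN_2954987, to 0.048 with that shift. Both are uncalled in the reported values. The direction of the called member probes was the same in every alternative that tested them. Park7 and both Ampd1 probes were called in all 14.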

Other observations

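These are transcript levels in bulk cultures. The array data hold no metabolite, enzyme activity or protein, and other measurements of the study were not analysed. There was 1 siRNA sequence per group, 1 time point and 3 arrays per group, on 1 chip. Replicate 3 of the DJ-1 siRNA group had the lowest value of Park7, of both Ckmt2 probes and of both Ampd1 probes. It also had the lowest value of Ckm, Ckb and both Mb probes, which were not called, and of the myotube markers Myh8 and Tnnc2. The call of Slc6a8 was lost whichever array was left out and in 2 alternatives that kept all arrays, and that of Gatm rests on a dim probe. Ckmt1 could not be read with either of its probes. Intensities of different probes depend on their sequences, so no gene is set against another by level.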
